A study of Mus musculus with 14 samples.

Results

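The Notch pathway genes *Notch1*, *Notch2*, *Notch3*, *Jag1*, *Jag2*, *Hes1* and *Hey1*, together with *Sox9* and *Spp1*, were followed through RNA-seq of 14 mouse libraries, 2 for each of 7 conditions. These 9 genes were listed by name out of 28022 genes in the count table, all 9 were found there, and all 9 passed the filter on low counts in every fit. The study converted mouse embryonic fibroblasts (MEFs) into induced hepatic stem cells (iHepSCs) with *Oct4* and *Hnf4α*, and asked how 3D culture and co-culture with induced endothelial cells (iECs) change them. The iECs came from the human fibroblast line HF1 through ETV2, so reads of human cells were counted where they aligned to the mouse genome. Every mouse library carries the label C57BL/6J and no other genotype. The conditions were fibroblasts (Fib), iHepSCs in 2D (2D-iH, labelled 2D-iHepSC), iHepSCs with iECs in 2D (2D-iHE, labelled 2D-iHepSCiEC), liver organoids of iHepSCs alone in a Matrigel and collagen I hydrogel (iHLO, labelled 3D-iHA), assembloids of iHepSCs and iECs in the same hydrogel (iHEA, labelled 3D-iHEA), adult liver and fetal liver. The study's methods describe the liver tissues as taken from young adult mice and mid-gestation embryos. All 4 culture conditions were therefore derived from converted cells that had expressed both factors, and neither the number of converted clones nor whether the libraries of a condition came from separate cultures or animals is stated, so the tests measure the spread between these libraries, which may be technical.

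Notch receptors sit on the cell surface and are activated by Jagged and Delta-like ligands on neighbouring cells. Activated receptors are cleaved by ADAM proteases and γ-secretase, and the released intracellular domain joins RBPJ and Mastermind proteins in the nucleus to switch on Hes and Hey repressors. In the developing liver the pathway is known for directing hepatoblasts toward the biliary lineage, in which the transcription factor SOX9 marks ductal plate and bile duct cells and osteopontin, the product of *Spp1*, is secreted. Transcript levels do not measure receptor cleavage, and in bulk RNA fewer cells of a type and less RNA per cell cannot be told apart.

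Total counts ranged from 20851489 to 35143325, and 3 counts in a library corresponded to 0.0771 to 0.196 CPM (counts per 1000000 counts of the library, after scaling by trimmed mean of M-values, TMM). The TMM factors were 0.445 and 0.451 in adult liver and 1.09 to 1.22 in the other libraries. At equal depth a count therefore gives a higher CPM in adult liver, and its place in an order of CPM depends on this scaling. The chi-square statistic per gene between the libraries of a condition was 3.05 to 3.67 in 5 conditions, 11.5 in iHEA and 13.4 in fetal liver, where sampling noise gives about 1. One iHEA library has a column name with contradictory numbers, so it is called the unnumbered iHEA library here. Hepatocyte markers (11 genes) summed to 553041 to 584760 CPM in adult liver, 11304 to 14323 CPM in fetal liver and 812 to 1257 CPM in the 8 culture libraries. Scaled sums are not shares of reads: in adult liver library 1 *Alb* had 8113083 of 34323473 counts. The list holds *Hnf4a*, a factor used for conversion, so its counts in the cultures may include the introduced copy. The culture sums were led by *Apob*, whereas *Alb* had 3 to 20 counts in 3D and 2 to 210 counts in 2D libraries. Mesenchymal markers (9 genes) summed to 26619 to 28002 CPM in fibroblasts and to 4.99 to 13.8 CPM in the cultures.

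For the 3 receptor genes the sequence before the RefSeq start is shown. The N-box, the letters CACNAG that HES repressors are known to bind, is in capitals on either strand. A match on the other strand reads CTNGTG on the printed strand. Each window holds the 250 bases upstream of the RefSeq start on GRCm38.p6, 5′ to 3′ on the gene's own strand: chr2:26503823-26504072 on the minus strand for *Notch1*, chr3:98013288-98013537 on the plus strand for *Notch2* and chr17:32166891-32167140 on the minus strand for *Notch3*. The *Notch1* window follows the RefSeq start and lies inside the longer span that the GENCODE annotation gives this gene, so it is not upstream of every annotated start. Of its 250 bases 2 are exonic in GENCODE, as are 11 of those of *Notch2* and 0 of those of *Notch3*.
Notch1: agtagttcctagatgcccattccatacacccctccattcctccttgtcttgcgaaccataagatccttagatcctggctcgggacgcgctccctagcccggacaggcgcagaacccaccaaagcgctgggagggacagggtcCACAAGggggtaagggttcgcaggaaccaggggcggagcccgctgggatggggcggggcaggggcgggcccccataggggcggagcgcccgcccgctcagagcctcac
Notch2: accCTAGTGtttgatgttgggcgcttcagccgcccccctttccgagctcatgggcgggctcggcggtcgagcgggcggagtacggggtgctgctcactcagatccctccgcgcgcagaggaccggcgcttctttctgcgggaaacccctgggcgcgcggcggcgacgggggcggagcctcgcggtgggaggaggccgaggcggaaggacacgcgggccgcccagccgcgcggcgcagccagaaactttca
Notch3: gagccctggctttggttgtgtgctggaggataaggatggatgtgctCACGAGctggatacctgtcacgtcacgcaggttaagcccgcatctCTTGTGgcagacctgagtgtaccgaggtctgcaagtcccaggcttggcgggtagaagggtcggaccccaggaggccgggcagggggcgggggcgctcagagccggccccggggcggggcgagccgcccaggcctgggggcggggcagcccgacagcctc
*Notch1* had 1 N-box, 108 bases before its start, *Notch2* had 1 at 247 bases and *Notch3* had 2, at 204 and 159 bases. Of 32851 promoter windows of this length, 36.7% held an N-box. The RBPJ core TGGGAA was found on neither strand in the windows of *Notch1*, *Notch2*, *Notch3*, *Jag1*, *Jag2* and *Spp1*, whereas 21.6% of all windows held it. The windows of *Jag1*, *Jag2* and *Spp1* held no N-box either. In GENCODE 250 of 250 bases of the *Jag2* window and 124 of the *Jag1* window are exonic. Like that of *Notch1*, these windows do not lie wholly upstream of every annotated start. *Spp1* has a window at chr5:104434861-104435110, before its annotated start at 104435118, and another at chr5:104435942-104436191 inside the gene, each with 0 exonic bases. The windows of receptors and other members were not compared by a test. The windows of the other members, *Hes1*, *Hey1* and *Sox9*, were not examined. These are matches of letters, no binding was measured, and a link to the members' levels was not tested.

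**Figure D1:**
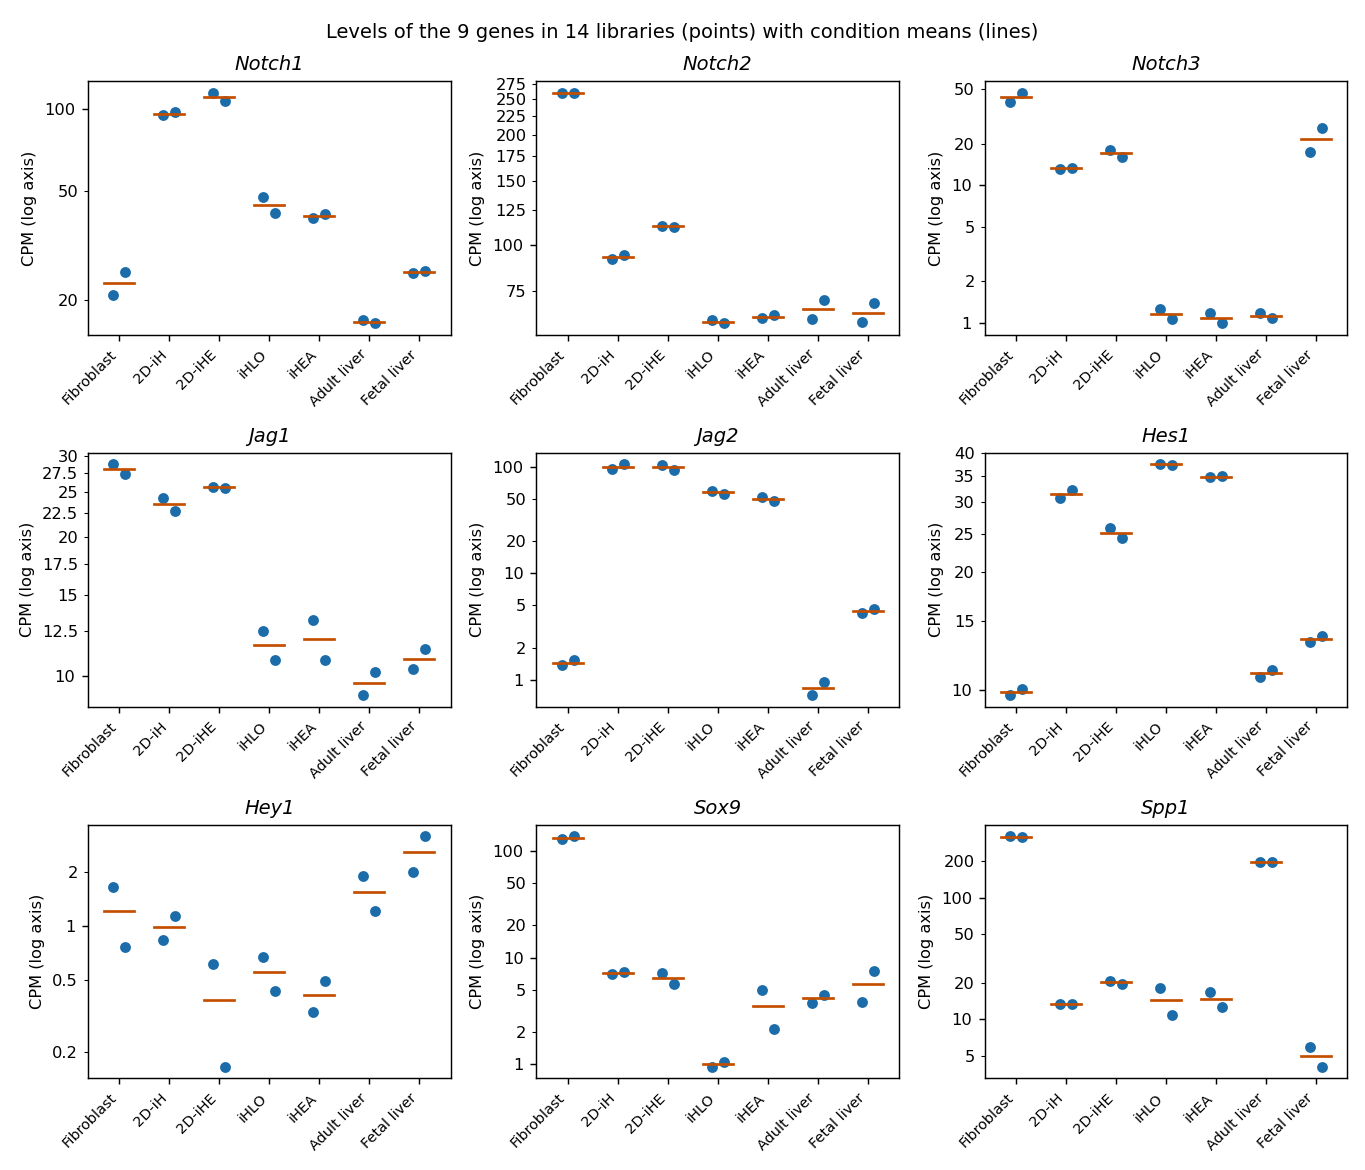
Level of each of the 9 genes in CPM on a log axis, with 1 panel per gene, 1 point per library and a line at the mean of the 2 libraries of each condition. *Notch3* lies near 1 CPM in iHLOs, iHEAs and adult liver and above 13 CPM in the 4 other conditions, and *Sox9* is highest in fibroblasts and lowest in iHLOs.

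Among the receptors, *Notch3* had the largest fold change between 3D and 2D culture. *Notch3* (chromosome 17, 32120820 to 32166852, minus strand), a receptor known from vascular smooth muscle and other mural cells, had 472 and 423 counts in 2D-iHs, 705 and 386 in 2D-iHEs, 41 and 34 in iHLOs, and 39 and 28 in iHEAs. It had 1495 and 1475 counts in fibroblasts, 590 and 806 in fetal liver, and 18 and 17 in adult liver. On the CPM scale the means were 43.6 ± 4.9 in fibroblasts, 21.7 ± 6.2 in fetal liver, 17.1 ± 1.5 in 2D-iHEs, 13.2 ± 0.098 in 2D-iHs, 1.16 ± 0.14 in iHLOs, 1.13 ± 0.071 in adult liver and 1.09 ± 0.13 in iHEAs (SD, n = 2). The 3 lowest conditions overlapped, the fetal liver and 2D-iHE libraries also overlapped, and all 4 2D libraries lay above all 4 3D libraries. The antisense gene *Gm17276* shares 488 exon bases with *Notch3*, and since the counting is not stated to use strand, reads of both cannot be told apart.

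*Notch1* (chromosome 2, 26457903 to 26516663, minus strand), a receptor used by hepatoblasts and many other cells, was higher in all culture libraries than in fibroblasts or liver. It had 3395 and 3088 counts in 2D-iHs, 4463 and 2566 in 2D-iHEs, 1556 and 1337 in iHLOs and 1320 and 1162 in iHEAs, against 777 and 792 in fibroblasts, 857 and 787 in fetal liver and 258 and 260 in adult liver. The mean level fell from 111 ± 5.8 CPM in 2D-iHEs and 95.8 ± 1.7 CPM in 2D-iHs to 44.6 ± 4.2 CPM in iHLOs and 40.5 ± 0.86 CPM in iHEAs (SD, n = 2). Only the fetal liver libraries, at a mean of 25.4 CPM, overlapped with their neighbour in this order, fibroblasts at 23.1 CPM. *Notch1* shares 1068 exon bases with the antisense gene *0610009E02Rik* and 414 with *Gm13568*.

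*Notch2* (chromosome 3, 98013527 to 98150361, plus strand), the receptor best known for bile duct formation, was highest in fibroblasts, with 9661 and 8145 counts and 259.8 ± 0.38 CPM (SD, n = 2). It had 3287 and 2994 counts in 2D-iHs, 4404 and 2699 in 2D-iHEs, 2047 and 1971 in iHLOs, and 2092 and 1821 in iHEAs. Adult liver had 967 and 1122 counts and fetal liver 2098 and 2150. The 3D cultures, at means of 62.0 and 63.9 CPM, lay next to fetal liver at 65.7 CPM and adult liver at 67.2 CPM, and the libraries of iHEAs, fetal liver and adult liver overlapped in this order. The place of adult liver here rests on its low TMM factors. Before scaling it had 967 of 34323473 and 1122 of 35022256 counts, and iHLOs had 2047 of 28838279 and 1971 of 27998348. The gene model *Gm42820* on the same strand shares 541 of its exon bases.

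The ligand *Jag2* was found mainly in the converted cells. *Jag2* (chromosome 12, 112907819 to 112929776, minus strand), a Jagged-type ligand, had 3393 and 3351 counts in 2D-iHs, 4061 and 2247 in 2D-iHEs, 1934 and 1795 in iHLOs and 1710 and 1342 in iHEAs. It had 51 and 48 counts in fibroblasts, 144 and 142 in fetal liver, and 11 and 15 in adult liver, so every culture library was above every other library. In CPM, 2D-iHs (99.9 ± 7.6) and 2D-iHEs (98.8 ± 7.9) overlapped, and iHLOs (57.5 ± 2.3), iHEAs (49.6 ± 3.0), fetal liver (4.42 ± 0.26), fibroblasts (1.45 ± 0.11) and adult liver (0.835 ± 0.16) followed without overlap (SD, n = 2).

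*Jag1* (chromosome 2, 137081456 to 137116644, minus strand), the ligand of portal mesenchyme whose loss underlies Alagille syndrome, varied less between conditions. It had 1069 and 858 counts in fibroblasts, 871 and 726 in 2D-iHs, 998 and 616 in 2D-iHEs, 409 and 347 in iHLOs, and 436 and 306 in iHEAs. Adult liver had 139 and 161 counts and fetal liver had 352 and 353. Its mean level was 23.5 to 28.1 CPM in fibroblasts and 2D cultures and 9.65 to 12.02 CPM in 3D cultures and liver, with no overlap between these groups of conditions.

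Of the target genes, *Hes1* was highest in the cultures, whereas *Hey1* was sparse in them. *Hes1* (chromosome 16, 30064384 to 30067796, plus strand), a repressor that is switched on by Notch and by other pathways, was counted 1148 and 987 times in iHEAs and 1225 and 1200 times in iHLOs, against 1004 and 586 in 2D-iHEs and 1105 and 1029 in 2D-iHs. It had 362 and 315 counts in fibroblasts, 165 and 178 in adult liver, and 451 and 424 in fetal liver. The order in CPM was iHLO (37.4 ± 0.039), iHEA (34.8 ± 0.16), 2D-iH (31.6 ± 1.1), 2D-iHE (25.1 ± 1.1), fetal liver (13.5 ± 0.32), adult liver (11.04 ± 0.34) and fibroblasts (9.89 ± 0.24), and no neighbours overlapped (SD, n = 2). *Hey1* (chromosome 3, 8663359 to 8667256, minus strand), a repressor of the same family, was counted 4 to 36 times in the 8 culture libraries, 61 and 24 times in fibroblasts, 29 and 19 times in adult liver, and 68 and 97 times in fetal liver. Its libraries differed by 3.72-fold within 2D-iHE and 2.14-fold within fibroblasts in CPM, so only large differences were detectable at this depth.

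*Sox9* and *Spp1* were abundant in fibroblasts. *Sox9* (chromosome 11, 112782224 to 112787760, plus strand) had 4790 and 4304 counts there, against 253 and 235 in 2D-iHs, 279 and 136 in 2D-iHEs, 31 and 34 in iHLOs, 163 and 60 in iHEAs, 58 and 71 in adult liver, and 131 and 230 in fetal liver. In CPM it was 133 ± 6.2 in fibroblasts, 7.22 ± 0.24 in 2D-iHs, 6.41 ± 1.1 in 2D-iHEs, 5.65 ± 2.5 in fetal liver, 4.15 ± 0.5 in adult liver, 3.53 ± 2.0 in iHEAs and 1.00 ± 0.079 in iHLOs (SD, n = 2). From 2D-iHs down to iHEAs each condition overlapped with the next, whereas fibroblasts and iHLOs stood apart at the ends. *Spp1* (chromosome 5, 104435118 to 104441050, plus strand) had 11918 and 9783 counts in fibroblasts, 2978 and 3111 in adult liver, 484 and 424 in 2D-iHs, 800 and 475 in 2D-iHEs, 598 and 348 in iHLOs, 560 and 357 in iHEAs, and 201 and 126 in fetal liver. Fibroblasts (316 CPM), adult liver (196 CPM) and 2D-iHEs (20.1 CPM) were the highest without overlap, the iHLO and iHEA libraries spanned 10.8 to 18.3 CPM and overlapped with those of 2D-iHs, and fetal liver was lowest at 5.00 CPM. The gene model *Gm42793* on the same strand shares 309 exon bases with *Spp1*.

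The receptors *Notch1*, *Notch2* and *Notch3* and the ligands *Jag1* and *Jag2* were lower and *Hes1* was higher in 3D than in 2D culture. In 4 3D against 4 2D libraries, 7 of the 9 genes were called by edgeR's quasi-likelihood test (adjusted p under 0.05), 1 higher and 6 lower in 3D, while 75.9% of all 13409 tested genes were called in this comparison, 38.7% higher and 37.2% lower. The median log2 fold change was -0.85 over the 9 genes and 0.01 over all tested genes, whose median absolute log2 fold change was 0.45. *Notch3* fell by 3.71 on the log2 scale (SE 0.15, adjusted p = 1.05e-09), or 13.1-fold. *Notch1* fell by 1.24 (SE 0.07, adjusted p = 3.25e-08), *Jag1* by 1.01 (SE 0.08) and *Jag2* by 0.85 (SE 0.06), and *Notch2* had a log2 fold change of -0.67 (SE 0.08, adjusted p = 8.39e-06). *Hes1* rose 1.31-fold (log2 fold change 0.39, SE 0.08, adjusted p = 0.000753). *Sox9* fell 2.92-fold (log2 fold change -1.55, SE 0.40, adjusted p = 0.00411), and the value was -2.28 without iHEA library 1 and -2.72 without both iHEA libraries. *Hey1* (-0.50, adjusted p = 0.294, and -0.77 with adjusted p = 0.0398 without 2D-iHE library 2) and *Spp1* (-0.15, adjusted p = 0.479) did not pass. The 3D and 2D libraries of 7 genes did not overlap, all except *Hey1* and *Spp1*, which was also so for 70.4% of all tested genes. Of 13 tested biliary markers, a list without *Sox9* and *Spp1*, 9 were higher and 3 lower in 3D, with sums of 1927 to 2214 CPM in 3D and 1407 to 1732 CPM in 2D. Of 7 tested endothelial markers 6 were higher and 0 lower in 3D (median log2 fold change 3.56), with sums of 888 to 1395 CPM in 3D and 421 to 501 CPM in 2D. All 5 tested mesenchymal markers were called, 2 higher and 3 lower, with sums of 4.99 to 10.7 CPM in 3D and 5.27 to 13.8 CPM in 2D. Of 6 tested hepatocyte markers 3 were higher and 0 lower, with sums of 1220 to 1257 CPM in 3D and 812 to 916 CPM in 2D, and of 3 tested macrophage markers 0 were higher and 2 lower. The part of these lists in the members' values was not tested.

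The same 7 genes were called, in the same directions, within each pair of conditions that share their cells. Both pairs are made of the libraries of the 3D against 2D test, so their calls are not independent of it. Between iHLO and 2D-iH, 1 gene was higher and 6 were lower, with 72.3% of all genes called, 36.9% higher and 35.3% lower. Between iHEA and 2D-iHE, 1 was higher and 6 were lower, with 70.9% of all genes called, 36.0% higher and 34.9% lower. In iHLOs 3 of 6 tested hepatocyte markers were higher and 2 lower, 9 and 3 of 13 biliary, 6 and 0 of 7 endothelial, and 2 and 3 of 5 mesenchymal markers. In iHEAs these numbers were 3 and 1, 9 and 2, 6 and 0, and 2 and 2, and the part of these lists was not tested. *Notch3* fell 11.1-fold in iHLOs (log2 fold change -3.47, SE 0.14) and 15.3-fold in iHEAs (-3.93, SE 0.14). *Hes1* rose 1.22-fold in iHLOs (0.29, SE 0.06, adjusted p = 0.000625) and 1.42-fold in iHEAs (0.51, SE 0.06, adjusted p = 6.86e-06). *Sox9* fell 6.96-fold in iHLOs (-2.80, SE 0.31, adjusted p = 2.76e-06) and 1.76-fold in iHEAs (-0.82, SE 0.26, adjusted p = 0.0122). The latter was -0.66 with adjusted p = 0.122 without 2D-iHE library 1, -1.55 without iHEA library 1 and -0.38 without the unnumbered iHEA library. Where leaving out a library left a condition with 1 library, the spread came from the other conditions fitted and the lone library was assumed to vary like them, so a call kept or gained there is no sign of stability. *Spp1* was at 0.16 (adjusted p = 0.44) in iHLOs and -0.41 (adjusted p = 0.0569) in iHEAs. The iHLO value was -0.26 without iHLO library 1 and 0.49 with adjusted p = 0.00717 without iHLO library 2, and the iHEA value was -0.62 with adjusted p = 0.00288 without iHEA library 1 and -0.40 with adjusted p = 0.00717 and 0.00685 without iHLO library 1 or 2.

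**Figure D2:**
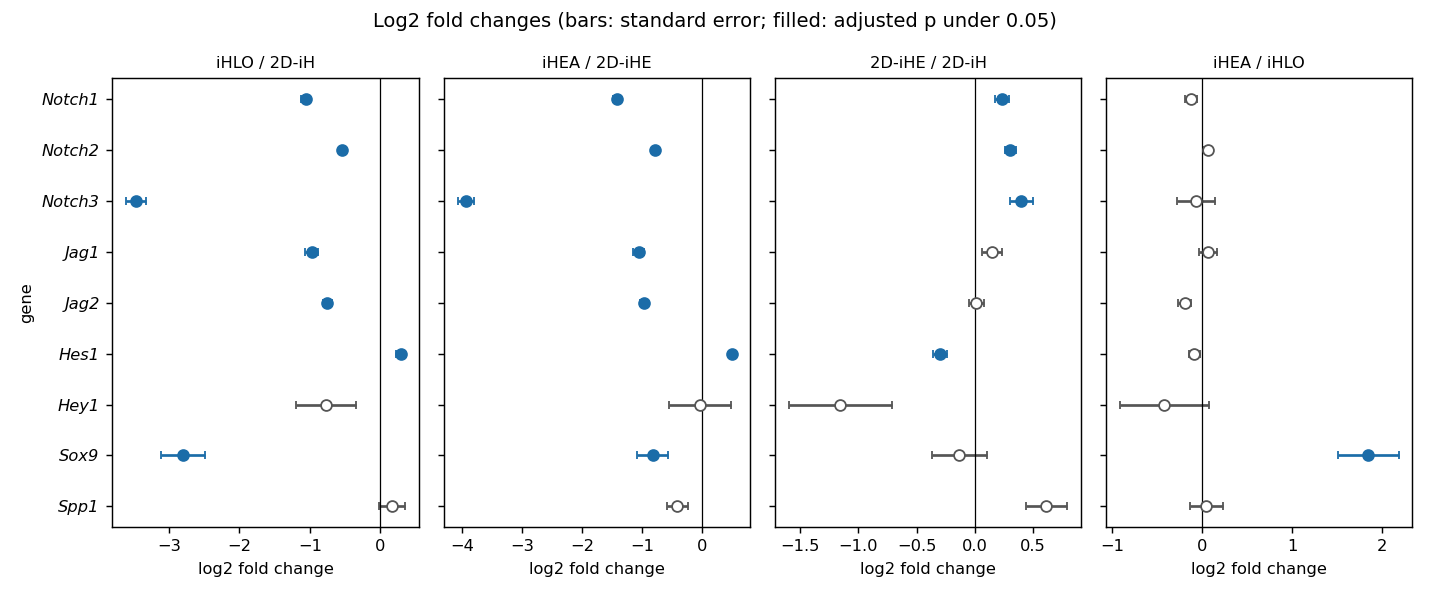
Log2 fold changes of the 9 genes in 4 comparisons of culture conditions, where each point is the edgeR estimate from 2 against 2 libraries, bars are its standard error, and filled points have an adjusted p under 0.05. The 3 receptors and both Jagged ligands lie left of 0 in both 3D against 2D panels with *Notch3* farthest, and *Sox9* is the filled point of the iHEA against iHLO panel. The horizontal scales differ between panels.

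In 3D, co-culture with iECs was accompanied by more *Sox9*. *Sox9* was 3.6-fold higher in iHEAs than in iHLOs (log2 fold change 1.85, SE 0.33, adjusted p = 0.013 from edgeR) and was the only one of the 9 genes called, 1 higher and 0 lower, with 2.26% of all genes called, 1.19% higher and 1.07% lower. At an unadjusted p under 0.05, 1702 of 13409 genes passed. The iHEA libraries were at 4.93 and 2.13 CPM and the iHLO libraries at 0.948 and 1.06 CPM, so the groups did not overlap, but the iHEA libraries differed from each other 2.32-fold. The *Sox9* call was lost without iHLO library 1 (1.77, adjusted p = 0.15) and without iHLO library 2 (1.93, adjusted p = 0.107). Without iHEA library 1 the value was 1.12, and without the unnumbered iHEA library it was 2.29. In both of these fits the spread came from the other conditions, so they do not test the value against the difference between the iHEA libraries. The other 8 genes had log2 fold changes from -0.42 (*Hey1*, SE 0.49) to 0.07 (*Jag1*, SE 0.10), and *Jag2* had -0.19 (SE 0.07, adjusted p = 0.209). Mesenchymal markers summed to 4.99 and 6.60 CPM in iHEAs and 5.49 and 10.7 CPM in iHLOs, with *Col1a2* and *Thy1* at 0 counts in all 4 libraries. Of 5 tested mesenchymal markers 1 was called, lower in iHEAs. The sum of 15 biliary markers was 2176 and 2214 CPM in iHEAs and 1979 and 1927 CPM in iHLOs, with 3 of 13 tested called, all higher in iHEAs (*Epcam* 0.58, *Prom1* 1.60, *Muc1* 0.92). Endothelial markers (10 genes, with *Kdr*, *Emcn* and *Erg* at 0 counts in iHEAs) had a sum of 888 to 968 CPM in iHEAs against 1256 to 1395 CPM in iHLOs, with 4 of 7 tested called, all lower in iHEAs (median log2 fold change -0.57 over the 7). The hepatocyte gene *Tat* also differed between the iHEA libraries, with 16.3 CPM in iHEA library 1, which had more *Sox9*, 2.20 CPM in the other and 1.31 and 2.21 CPM in iHLOs. Of 6 tested hepatocyte markers 1 was called, lower in iHEAs, with sums of 1220 to 1249 CPM in iHEAs and 1228 to 1257 CPM in iHLOs. The part of these lists and of human reads in the *Sox9* difference was not tested.

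In 2D, co-culture was accompanied by small changes of other members. The receptors *Notch1* (log2 fold change 0.23, adjusted p = 0.0322), *Notch2* (0.31, adjusted p = 0.00217) and *Notch3* (0.40, adjusted p = 0.0241) were higher and *Hes1* (-0.30, adjusted p = 0.00939) was lower in 2D-iHEs than in 2D-iHs, so that 4 of 9 genes were called, 3 higher and 1 lower, by edgeR. Of all genes, 8.17% were called, 4.26% higher and 3.92% lower. *Notch1* (adjusted p = 0.103 to 0.255) and *Notch3* (adjusted p = 0.0786 to 0.277) were lost without any 1 of the 4 libraries compared, and *Hes1* was lost without 2D-iH library 2, 2D-iHE library 1 or 2D-iHE library 2 (adjusted p = 0.0728 to 0.0897). *Spp1* was at 0.61 (SE 0.18, adjusted p = 0.0539), and it was called without iHLO library 1 or 2 or either iHEA library (adjusted p = 0.00227 to 0.00896), none of which belongs to this comparison. *Sox9* was at -0.13 (SE 0.24, adjusted p = 0.806). The sum of 9 mesenchymal markers was 12.1 to 13.8 CPM in 2D-iHEs and 5.27 to 5.41 CPM in 2D-iHs, led by *Col1a1*, with *Col3a1* and *Thy1* at 0 counts in 2D-iHEs. Of 5 tested mesenchymal markers 1 was called, higher in 2D-iHEs. Endothelial markers summed to 421 to 443 CPM in 2D-iHEs and 496 to 501 CPM in 2D-iHs, with 3 of 7 tested called, all lower. Of 6 tested hepatocyte markers 3 were called, all lower, with sums of 812 to 837 against 909 to 916 CPM. Of 13 tested biliary markers 1 was higher and 2 lower, with sums of 1407 to 1556 against 1663 to 1732 CPM. The part of human reads and of these markers in the differences was not tested.

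The effect of co-culture on *Sox9* differed between 3D and 2D by 1.98 on the log2 scale (SE 0.41, adjusted p = 0.0222 for the difference between both effects in edgeR), 1 of 9 genes called higher and 0 lower, with 3.14% of all genes called, 1.52% higher and 1.62% lower. This call was lost without any 1 of the 2D-iH, 2D-iHE or iHLO libraries (1.86 to 2.15, adjusted p = 0.083 to 0.13) and in a fit of all 14 libraries (1.99, adjusted p = 0.0527). The value was 1.24 and 2.42 without each iHEA library, with the spread taken from the other conditions. For *Notch1* the difference was -0.36 (SE 0.09, adjusted p = 0.0538), with adjusted p = 0.0344, 0.043 and 0.0115 without iHLO library 2, iHEA library 1 and the unnumbered iHEA library. *Notch2* (-0.25, adjusted p = 0.0897) passed without the unnumbered iHEA library (adjusted p = 0.038), and *Spp1* (-0.57, adjusted p = 0.314) passed without iHLO library 2 or iHEA library 1 (adjusted p = 0.0304 and 0.0297).

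Conversion of fibroblasts to iHepSCs went with a change of ligand and receptor genes. In 2D-iHs against fibroblasts, 8 of 9 genes were called by edgeR, 3 higher and 5 lower, with 83.9% of all 14121 genes called, 45.7% higher and 38.2% lower. *Jag2* rose 65.7-fold (log2 fold change 6.04, SE 0.11, adjusted p = 1.33e-16), *Notch1* 3.96-fold (1.99, SE 0.08) and *Hes1* 3.04-fold (1.60, SE 0.07). *Spp1* fell 24.8-fold (-4.63, SE 0.16, adjusted p = 3.29e-13), *Sox9* 19.4-fold (-4.27, SE 0.21, adjusted p = 1.8e-11), *Notch3* 3.46-fold (-1.79, SE 0.14), *Notch2* 2.94-fold (-1.56, SE 0.06) and *Jag1* 1.25-fold (-0.32, SE 0.09, adjusted p = 0.00379). *Hey1* was at -0.39 (SE 0.42, adjusted p = 0.387). The median over all genes was 0.11 with this scaling, and no member changed direction with the other scalings tried. The falls of *Sox9*, *Spp1*, *Notch2* and *Notch3* went with the fall of the mesenchymal marker sum from at least 26619 CPM to at most 5.41 CPM, and the part of that in them was not tested. The biliary marker sum rose from 229 to 236 CPM in fibroblasts to 1663 to 1732 CPM in 2D-iHs, with 7 of 12 tested markers higher and 3 lower, while *Sox9* and *Spp1* fell. Of 9 tested hepatocyte markers 6 were higher and 0 lower in 2D-iHs, of 9 endothelial markers 5 and 2, and of 6 macrophage markers 2 and 0. The hepatocyte list holds *Hnf4a*, which was introduced for the conversion. The part of these lists was not tested either.

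Compared with fetal liver, 2D-iHs had 8 of 9 genes called, 6 higher and 2 lower, with 85.3% of all genes called, 42.0% higher and 43.3% lower. *Jag2* was 21.1-fold higher (log2 fold change 4.40, SE 0.09), *Notch1* 3.52-fold higher (1.82, SE 0.08), *Spp1* 2.48-fold higher (1.31, SE 0.21), *Hes1* 2.18-fold higher (1.12, SE 0.07), *Jag1* 2.02-fold higher (1.01, SE 0.10) and *Notch2* 1.32-fold higher (0.40, SE 0.06), all with adjusted p of 3.23e-05 or lower in edgeR. *Notch3* was 1.76-fold lower (-0.82, SE 0.15, adjusted p = 9.77e-05) and *Hey1* 2.8-fold lower (-1.49, SE 0.38, adjusted p = 0.00194). *Sox9* was at 0.26 (SE 0.26, adjusted p = 0.351). That value was 0.79 with adjusted p = 0.00666 without fetal liver library 2 and -0.26 without fetal liver library 1. The fetal liver library with more *Notch3* (26.1 against 17.4 CPM) and *Sox9* (7.45 against 3.85 CPM) was also the one with the larger mesenchymal marker sum (2918 against 1742 CPM). Erythroid markers summed to 15626 to 15816 CPM in fetal liver and 0.283 to 0.836 CPM in 2D-iHs, with 4 of 4 tested lower in 2D-iHs. Of 9 tested hepatocyte markers 1 was higher and 7 lower in 2D-iHs, of 9 endothelial markers 1 and 8, of 6 macrophage markers 1 and 5, and of 12 biliary markers 3 and 7. All 8 tested mesenchymal markers were lower in 2D-iHs (median log2 fold change -7.50). The part of these lists was not tested.

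Compared with adult liver, iHLOs had 7 of 9 genes called, 3 higher and 4 lower, with 84.9% of all genes called, 45.7% higher and 39.2% lower. *Jag2* was 62.4-fold higher (log2 fold change 5.96, SE 0.15), *Hes1* 3.09-fold (1.63, SE 0.08) and *Notch1* 2.44-fold higher (1.29, SE 0.10). *Spp1* was 14.7-fold lower (-3.88, SE 0.16, adjusted p = 2.16e-12 in edgeR), *Sox9* 4.52-fold lower (-2.18, SE 0.46, adjusted p = 0.000436), *Hey1* 3.04-fold lower (-1.60, SE 0.51, adjusted p = 0.00866) and *Notch2* 1.19-fold lower (-0.25, SE 0.07, adjusted p = 0.00255), the last of which was -0.12 with adjusted p = 0.19 without the filter on low counts. The *Hey1* call was lost without iHLO library 2 (-1.32, adjusted p = 0.0554) and without adult liver library 1 (-1.32, adjusted p = 0.092). The median over all genes was 0.13 in this comparison, and its fold changes carry the low TMM factors of adult liver. *Notch3* (-0.09, SE 0.43) and *Jag1* (0.14, SE 0.12) did not pass. All tested markers of 4 lists were lower in iHLOs, 9 of 9 hepatocyte, 6 of 6 macrophage, 8 of 8 mesenchymal and 4 of 4 erythroid genes. The hepatocyte sum was 1228 to 1257 CPM in iHLOs and 553041 to 584760 CPM in adult liver, the macrophage sum 22.0 to 22.6 against 1150 to 1184 CPM, the mesenchymal sum 5.49 to 10.7 against 266 to 271 CPM and the erythroid sum 0.81 to 0.856 against 264 to 287 CPM. Of 9 tested endothelial markers 3 were higher and 6 lower, and of 12 tested biliary markers 8 were higher and 4 lower, with a biliary sum of 1927 to 1979 against 408 to 414 CPM. The part of these lists in the members' values was not tested.

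Between adult and fetal liver, 5 of 9 genes were called, 1 higher and 4 lower in adult liver, with 83.7% of all genes called, 40.0% higher and 43.8% lower. *Spp1* was 39.7-fold higher in adult liver (log2 fold change 5.31, SE 0.19, adjusted p = 2.28e-13 in edgeR). *Notch3* was 18.8-fold lower (-4.23, SE 0.26), *Jag2* 5.15-fold lower (-2.36, SE 0.23), *Notch1* 1.49-fold lower (-0.58, SE 0.10) and *Hes1* 1.2-fold lower (-0.26, SE 0.08, adjusted p = 0.00853). The *Hes1* call was lost without adult liver library 1 (-0.17, adjusted p = 0.181) or 2 (-0.21, adjusted p = 0.092). *Sox9* was at -0.40 (SE 0.34, adjusted p = 0.281), at -0.76 with adjusted p = 0.0184 without fetal liver library 1 and at 0.13 without fetal liver library 2. *Hey1* was at -0.70 (adjusted p = 0.127), with -0.94 and adjusted p = 0.045 without fetal liver library 1, and *Notch2* was at 0.06 (adjusted p = 0.385), with 0.21 and adjusted p = 0.0224 without adult liver library 1. *Notch2* was called higher in adult liver with DESeq2 size factors (0.18, adjusted p = 0.0159), median centring (0.16, adjusted p = 0.0314) and the Wald test of DESeq2 (0.18, adjusted p = 0.0166), and *Hes1* was at -0.14 (adjusted p = 0.148), -0.16 (adjusted p = 0.0875) and -0.14 (adjusted p = 0.284) with them. Macrophage markers (6 genes, none at 0 counts in either tissue) summed to 1150 to 1184 CPM in adult liver and 180 to 217 CPM in fetal liver, and mesenchymal markers to 266 to 271 CPM and 1742 to 2918 CPM. Erythroid markers (5 genes, none at 0 counts) summed to 264 to 287 CPM in adult liver and 15626 to 15816 CPM in fetal liver, with 4 of 4 tested lower in adult liver. Of 9 tested hepatocyte markers 9 were higher and 0 lower in adult liver, of 9 endothelial markers 4 and 2, and of 12 biliary markers 5 and 5. The part of these lists in the differences was not tested. The 4 comparisons with fibroblasts and liver share 2D-iH, fetal liver or adult liver libraries.

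**Figure D3:**
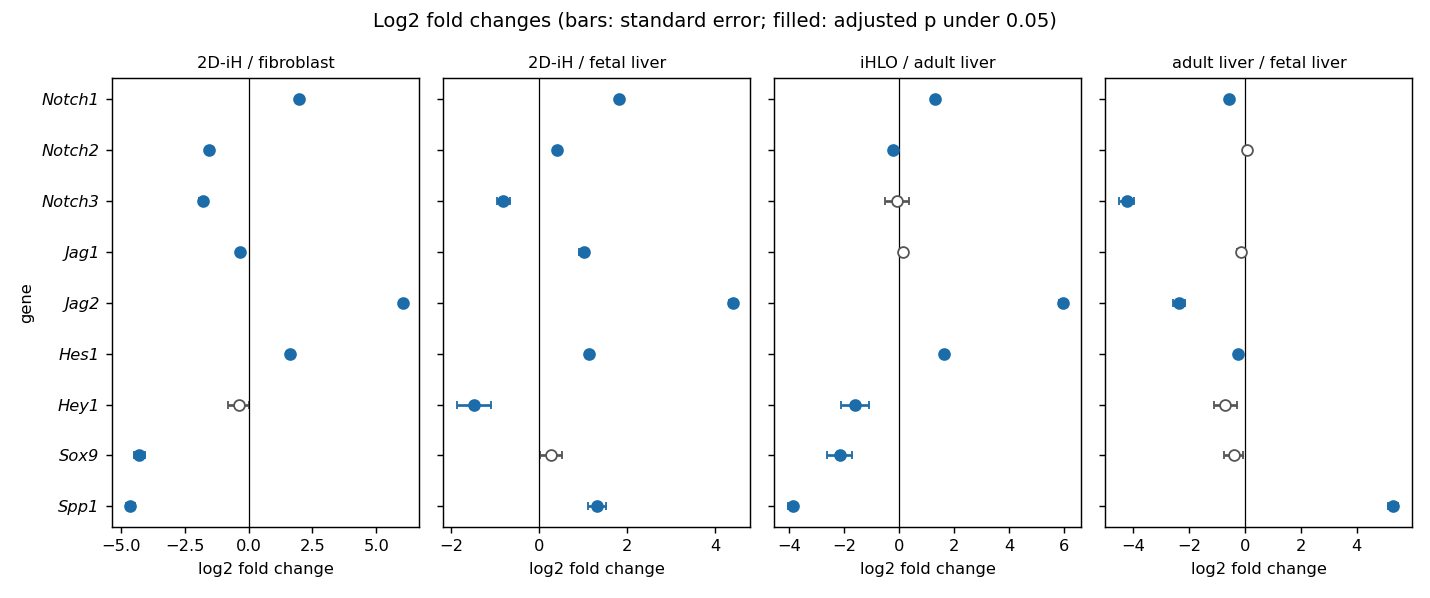
Log2 fold changes of the 9 genes for 2D-iH against fibroblasts, 2D-iH against fetal liver, iHLO against adult liver and adult against fetal liver, where points are edgeR estimates from 2 against 2 libraries, bars are standard errors, and filled points have an adjusted p under 0.05. *Jag2* lies between 4 and 6.04 in the first 3 panels, and the horizontal scales differ between panels.

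To compare levels between genes, counts were divided by the merged length of all GENCODE exons of a gene. This length was 14232 bases for *Notch1* and 10782 for *Notch2*, and it can exceed that of a single transcript. The share of each gene was taken within the 4 Notch receptor genes and within the 5 Notch ligand genes. *Notch2* had the largest share of receptor transcripts per length in every condition, from 76.8% ± 2.1 in fibroblasts to 45.1% ± 0.2 in 2D-iHs and 44.9% in 2D-iHEs, with 59.9% ± 2.0 in iHLOs, 63.0% ± 0.12 in iHEAs, 70.5% ± 2.5 in adult liver and 52.5% ± 2.0 in fetal liver (SD, n = 2). *Notch1* rose from 5.16% in fibroblasts to 35.3% in 2D-iHs and was still 32.6% in iHLOs and 30.3% in iHEAs. The share of *Notch3* was 17.2% in fibroblasts, 22.9% in fetal liver, 8.57% in 2D-iHs, 9.06% in 2D-iHEs, 1.49% in iHLOs, 1.43% in iHEAs and 1.58% in adult liver. Of ligand transcripts per length, *Jag1* made up 91.4% ± 0.56 in fibroblasts, whereas *Jag2* made up 77.6% ± 2.0 in 2D-iHs, 75.8% ± 1.5 in 2D-iHEs, 71.9% ± 1.1 in iHLOs and 70.0% ± 0.81 in iHEAs. In adult liver the Delta-like ligands *Dll1* (34.7%) and *Dll4* (39.8%) made up most of the ligand transcripts, and *Jag2* made up 1.72%. *Dll1* had 0.172% in 2D-iHs and 10.0% in iHLOs. These shares carry no test. The order of *Notch2* and *Notch1* in 2D-iHs depends on the division by length: without it *Notch1* had 43.8% and *Notch2* 42.4% of receptor counts there, and 41.9% and 42.7% in 2D-iHEs. A shorter length for *Notch1* would raise its share, and other lengths were not tried.

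**Figure D4:**
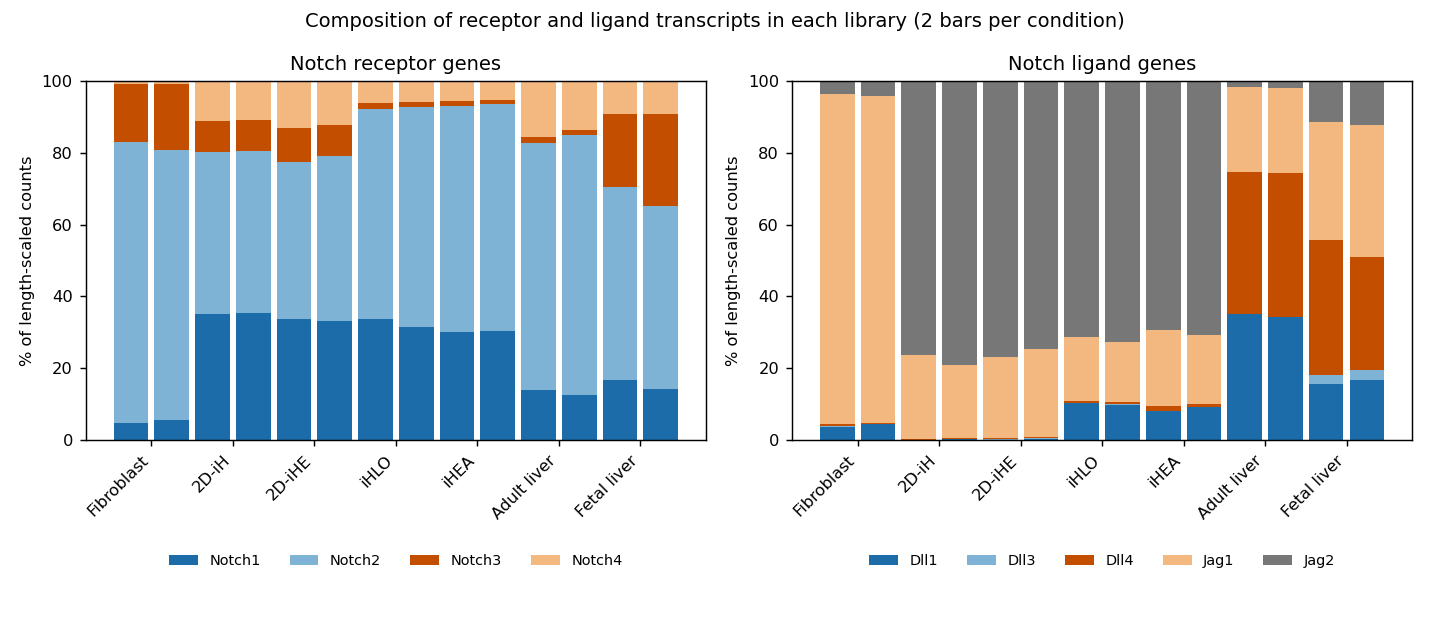
Share of each Notch receptor gene (left) and each Notch ligand gene (right) in percent of length-scaled counts, with 1 stacked bar per library and 2 bars per condition. *Jag2* takes 69.5% to 79.0% of ligand transcripts in the 8 culture libraries, and the Delta-like genes take most of them in adult liver.

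The rest of the pathway was followed with 58 other genes, of which 51 passed the filter. Between 3D and 2D, 43 of the 51 were called, 28 higher and 15 lower in 3D, with a median log2 fold change of 0.20, beside 75.9% called and a median of 0.01 over all genes. By role, 7 of 9 protease genes that cleave receptors or ligands were higher and 0 lower, 6 of 9 tested genes of the nuclear complex were higher and 2 lower, and 3 of 4 tested genes that glycosylate receptors were higher and 1 lower. Of 10 corepressor genes 4 were higher and 4 lower, of 7 turnover and trafficking genes 3 were higher and 2 lower, of 4 ligand ubiquitin ligases 1 was higher and 2 lower, and of 4 tested target genes 2 were higher and 2 lower. Over all genes, 38.7% were higher and 37.2% lower. The gene of the DNA-binding partner, *Rbpj*, was among the lower ones, with a log2 fold change of -0.98 (SE 0.06, adjusted p = 4.56e-08) from 78.4 to 91.9 CPM in 2D to 40.3 to 44.1 CPM in 3D. The 5 largest called changes were those of *Dtx1*, *Dlk2*, *Dll1*, *Notch4* and *Hes7*. The target and E3 ligase gene *Dtx1* rose from 1 to 5 counts in 2D libraries to 144 to 269 counts in 3D libraries (log2 fold change 6.06, SE 0.29), and the ligand *Dll1* from 3 to 7 to between 106 and 169 counts (4.73, SE 0.27). The non-canonical ligand *Dlk2* fell from at least 855 to at most 40 counts (-5.03, SE 0.07), the receptor *Notch4*, known from endothelial cells, from at least 535 to at most 162 counts (-2.19, SE 0.15), and *Hes7* from 17 to 20 to between 3 and 5 counts (-2.12, SE 0.30).

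Other named pathway genes did not follow a single direction. *Nrarp*, a feedback target, fell in 3D (log2 fold change -0.86, SE 0.18, adjusted p = 0.000901), whereas *Hey2* (1.01, SE 0.28, adjusted p = 0.00669) and *Dll4* (0.96, SE 0.35, adjusted p = 0.0277) rose from low counts, with at most 18 counts in any culture library. The target *Heyl* had 0 counts in all 8 culture libraries, which allows up to 3 counts or 0.0771 to 0.124 CPM in each, against 98 and 94 counts in adult liver and 152 and 227 in fetal liver. *Hes5* had at most 3 counts in any of the 14 libraries. Endothelial markers (10 genes) summed to 1256 to 1395 CPM in iHLOs and 496 to 501 CPM in 2D-iHs, neither of which received iECs. These sums were led by *Vwf* and by *Cdh5*, whereas *Pecam1* had 5 counts in each 2D-iH library and 14 and 22 counts in iHLOs. The *Notch4*, *Dll1* and *Dll4* values stand beside these sums, and their part was not tested.

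**Figure D5:**
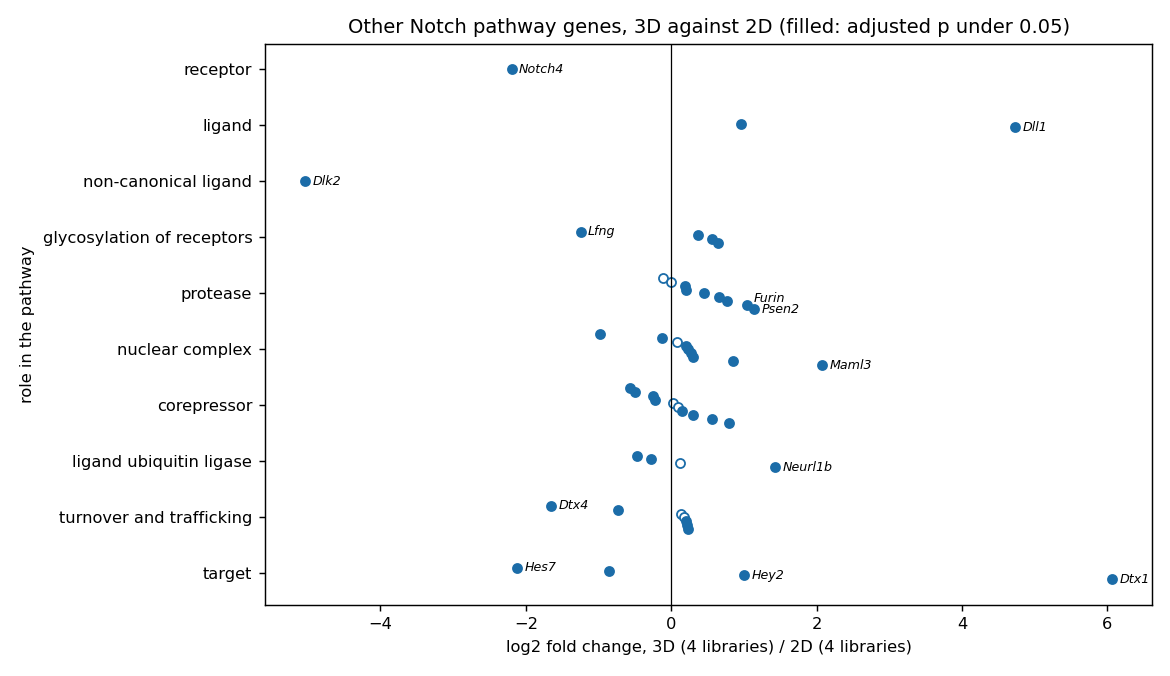
Log2 fold change between 4 3D and 4 2D libraries of the 51 tested other Notch pathway genes, grouped by role on the vertical axis, with filled points for an adjusted p under 0.05 and names for absolute values above 1. *Dtx1* and *Dll1* lie farthest right at 6.06 and 4.73, and *Dlk2* farthest left at -5.03.

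In the fit of all 14 libraries 51 of the 58 genes passed the filter as well, with *Dlk1* in place of *Hes7*. Against fibroblasts, 42 of these 51 were called in 2D-iHs, 13 higher and 29 lower (median log2 fold change -0.29), beside 83.9% called and a median of 0.11 over all genes. The largest were *Dlk1* (3381 and 3244 counts in fibroblasts, 0 in all 4 2D libraries), *Nrarp* (4.96, SE 0.30), *Neurl1a* (-3.85, SE 0.27), *Hey2* (-3.15, SE 0.33) and *Notch4* (2.97, SE 0.15). *Dll1* was lower (-2.80, SE 0.40), *Rbpj* was higher (0.87, SE 0.06), and *Dll4* was at 0.80 (SE 0.64, adjusted p = 0.276). *Dlk1* was counted 38125 and 35753 times in fetal liver and 0 times in adult liver. In iHEAs against iHLOs, 1 of 51 genes was called beside 2.26% of all genes, *Dtx4*, which was higher (0.58, SE 0.08, adjusted p = 0.00305). In 2D-iHEs against 2D-iHs, 5 genes were called beside 8.17% of all genes, all higher, namely *Notch4* (0.51), *Rbpj* (0.21), *Numbl* (0.34), *Dtx3* (0.31) and *Dtx4* (0.56). The genes named for these last 2 comparisons were picked after their values were seen. For the difference between both co-culture effects, 1 gene was called beside 3.14% of all genes, *Notch4* (-0.68, SE 0.15, adjusted p = 0.0281).

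The genes whose mean log2 CPM over the 7 conditions ran most like that of a member were listed as a description, among 14120 other genes and with 7 points that share libraries and scaling. For *Sox9* these were *Wnt5a* (Pearson's r = 0.983), *Usp28* (0.983), *Irx3* (0.982), *B230319C09Rik* (0.972) and *Ppp4r1l-ps* (0.972). For *Notch3* they were *Dcaf4* (0.995), *Myl6b* (0.993), *Adam12* (0.989), *Trmt10a* (0.986) and *Qk* (0.985). For *Hes1* they were *Clrn3* (0.996), *Tspan2* (0.995), *Ugt1a7c* (0.993), *Esco1* (0.993) and *Adgrg7* (0.993).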

How the data were processed

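Counts per gene from RNA-seq of 14 mouse libraries (7 conditions, 2 libraries each) were analyzed. The authors aligned paired-end reads with HISAT2 to GRCm38, annotated them with Cufflinks and counted reads per gene with HTSeq, and Trimmomatic 0.36 is named in the submitters' processing notes. Other versions, the annotation release and the strand setting are not given in the sources used here. The deposited values are raw counts, with totals from 20851489 to 35143325 (median 28755832.5), and the authors' equalization and log2 transformation are not in them. Conditions came from the labels. The column of one iHEA library holds contradictory numbers, so it was assigned to its condition only.

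The counts were tested with edgeR 4.0.16 in R 4.3.3: TMM scaling, a floor of 3 on the mean log2(count + 1) of a gene across the libraries fitted, quasi-likelihood tests and Benjamini-Hochberg adjustment over all tested genes, with a threshold of 0.05. The 4 comparisons of single culture conditions and the difference of the co-culture effects used 8 culture libraries, 3D against 2D used 4 against 4, and the other 4 comparisons used all 14 libraries. Standard errors are the log2 fold change divided by the square root of the F statistic. CPM values are counts per 1000000 of TMM-scaled totals, and log2 CPM used a prior count of 2. Intervals and floors cover counting error only. Scripts were tested on simulated data.

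The 9 genes and all gene lists were chosen with earlier results of these data known. All 9 genes are given in every library. Of 58 other pathway genes, counts are given, with the 5 largest called changes in 3D against 2D and in 2D-iH against fibroblasts, and *Notch4*, *Dll1*, *Dll4*, *Rbpj*, *Hes5*, *Hey2*, *Heyl* and *Nrarp* whatever they did. Most alike genes were ranked by Pearson's r over condition means. Gene positions came from GENCODE M21 on GRCm38, and promoter windows from RefSeq on GRCm38.p6. Library numbers showed no shared deviations: the correlations of deviations between conditions other than iHEA were -0.0393 to 0.0516 over 15 pairs. This does not establish that the numbers denote no pairs. Alternatives for the filter (none, or a floor of 5), the scaling (median centring, or size factors of DESeq2 1.42.0), the test (the DESeq2 Wald test), a replicate block by library number, the libraries fitted and each library left out were tried, as were, chosen after seeing the data, the libraries of that block fit without the block.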

Additional observations from a re-analysis of the deposited data

Results flagged for a closer look

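The effect of co-culture with iECs on *Sox9* differed between 3D and 2D by 1.98 on the log2 scale (SE 0.41, adjusted p = 0.0222 for the difference itself in edgeR). *Sox9* was 1.85 higher in iHEAs than in iHLOs and -0.13 in 2D-iHEs against 2D-iHs, with 2 libraries per condition. Both iHEA libraries were above both iHLO libraries, and the difference between the effects lost its call without any 1 of the 6 libraries of 2D-iH, 2D-iHE and iHLO. No other member was called in this test.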

How the results depend on the processing

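Of the members' fold changes under all alternatives, 1494 kept direction and side of the threshold, 33 lost a call, 40 gained one and 23 changed sign. The number of called members in iHEA against iHLO (1) was 2 without the filter. For the difference between co-culture effects (1) it was 3 without the filter, 2 with the filter of at least 5, 2 with the DESeq2 Wald test and 0 with all 14 libraries, and for 2D-iHE against 2D-iH (4) it was 2 with all 14 libraries. The cause was not tested. In 2D-iHE against 2D-iH, *Hey1* (-1.18, adjusted p = 0.0463) and *Spp1* (0.61, adjusted p = 5.27e-09) were also called without the filter and *Spp1* (0.62, adjusted p = 0.0475) with the filter of at least 5, whereas *Notch3* lost its call with the Wald test (0.40, adjusted p = 0.112), and *Notch1* (0.22, adjusted p = 0.0992) and *Notch3* (0.39, adjusted p = 0.162) with all 14 libraries. Without the filter, calls were added for *Jag2* in iHEA against iHLO (-0.21, adjusted p = 0.0334), *Spp1* in iHEA against 2D-iHE (-0.39, adjusted p = 6.18e-05, and -0.44 with adjusted p = 0.0367 with all 14 libraries), *Sox9* in 2D-iH against fetal liver (0.37, adjusted p = 0.00483), *Jag1* in iHLO against adult liver (0.27, adjusted p = 0.0455), *Hey1* (-0.73, adjusted p = 0.0408) and *Sox9* (-0.43, adjusted p = 0.0122) in adult against fetal liver, and *Notch1* (-0.37, adjusted p = 0.00249, and -0.35 with adjusted p = 0.0472 with the filter of at least 5 and 0.0326 with the Wald test) and *Spp1* (-0.58, adjusted p = 0.000716) in the difference of effects. Leaving out each library gave 0 to 1 members for iHEA against iHLO, 1 to 5 for 2D-iHE against 2D-iH and 0 to 3 for the difference of effects, and in the other comparisons 7 to 8 (3D against 2D and iHLO against 2D-iH), 6 to 8 (iHEA against 2D-iHE), 8 to 8 (2D-iH against fibroblasts), 8 to 9 (2D-iH against fetal liver), 6 to 7 (iHLO against adult liver) and 4 to 7 (adult against fetal liver).

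Sign changes concerned values that were not called. *Hey1* in iHEA against 2D-iHE became 0.00025 without the filter and 0.0501 with the Wald test, *Notch3* in iHLO against adult liver 0.039 without the filter, and *Jag1* in iHLO against adult liver -0.0049 with DESeq2 size factors and -0.0049 with the Wald test. Leaving out each library gave log2 fold changes of both signs: -0.26 to 0.49 for *Spp1* in iHLO against 2D-iH, -0.53 to 1.29 for *Hey1* in iHEA against 2D-iHE, -0.19 to 0.058 for *Notch3* in iHEA against iHLO, -0.069 to 0.18 for *Jag1* in iHEA against iHLO, -0.28 to 0.47 for *Spp1* in iHEA against iHLO, -0.064 to 0.10 for *Jag2* in 2D-iHE against 2D-iH, -0.21 to 0.033 for *Jag1* in the difference of effects, -0.82 to 0.26 for *Hey1* in 2D-iH against fibroblasts, -0.26 to 0.79 for *Sox9* in 2D-iH against fetal liver, -0.26 to 0.028 for *Notch3* in iHLO against adult liver, -0.021 to 0.25 for *Jag1* in iHLO against adult liver and -0.76 to 0.13 for *Sox9* in adult liver against fetal liver.

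With the replicate block, which needs numbered libraries and so leaves out the iHEA libraries, 7 members were called in 3D against 2D, 8 in iHLO against 2D-iH, where *Hey1* was added (-0.76, adjusted p = 0.0406), 6 in 2D-iHE against 2D-iH, where *Hey1* (-1.17, adjusted p = 0.0191) and *Spp1* (0.60, adjusted p = 6.87e-07) were added, 8 in 2D-iH against fibroblasts, 8 in 2D-iH against fetal liver, 7 in iHLO against adult liver and 5 in adult against fetal liver. Without the block the same libraries also called *Spp1* (0.61, adjusted p = 0.00231). Levels moved by more than the spread between libraries in 79 of 126 values with other scalings, and shares of receptors did so in 26 of 28 values without the division by length. With 2 libraries per condition and at most 36 counts of *Hey1* in a culture library, small changes of *Hey1* were not detectable.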
